A study of Mus musculus with 6 samples.

Results

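The Rab GTPase and SNARE genes were examined in exosome RNA. Exosomes are vesicles set free when multivesicular endosomes fuse with the plasma membrane. The members are all genes of the deposited table whose symbol is Rab, Vamp, Stx or Snap followed by a number, which took in 68 of 12384 genes, 46 Rab and 22 SNARE genes. They accounted for 153 of the 27544 listed transcripts. The rule matched names only, but it was set with earlier results of these data known, and only genes listed in the table could match.

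The samples were 3 libraries of exosome RNA from immature and 3 from mature dendritic cells grown from C57BL/6 mouse bone marrow. The cells of both groups had GM-CSF (20 ng/ml) and IL-4 (10 ng/ml) in vesicle-depleted medium until day 7. The growth protocol then describes 24 h with either 5 µg/ml lipopolysaccharide, which activates dendritic cells through Toll-like receptor 4, or PBS, followed by washing and 48 h of release into fresh medium. It does not say which group had which, and a treatment tag reads untreated for all 6 samples. The mature group is taken here as the lipopolysaccharide arm because that agent is the usual maturation stimulus. Exosomes were collected by differential ultracentrifugation, and neither the sex nor the age of the mice, nor a separate culture for each library, is given in the sources used here. The p-values therefore rest on the variation from library to library, which may be technical.

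Rab proteins are small GTPases that mark the membranes of the secretory and endocytic pathways. In the GTP-bound state they recruit tethers, motors and other effectors to the membrane. SNARE proteins then drive fusion, when a vesicle SNARE of the VAMP family zips together with a syntaxin and a SNAP-25 type partner on the target membrane. Dendritic cells use this machinery to take up antigen, to move MHC molecules to the surface, to secrete cytokines and to release exosomes. The values here are messenger RNA inside the vesicles and say nothing of the proteins. In bulk exosome RNA, fewer vesicles from one kind of cell and less RNA per vesicle cannot be told apart.

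Library facts of 2 kinds touch the values below. First, immature library 2 and mature library 1 stood apart. They had 10912 and 12924 transcripts at an FPKM (fragments mapped, scaled to transcript length and library size) of at least 0.5, against 15432 to 18775 in the other 4 libraries. Mitochondrially encoded transcripts took 2.55% and 0.940% of their summed FPKM, against 0.0696% to 0.282% elsewhere. Second, the median gene was 0.38 higher in the mature group on the log2(FPKM + 1) scale, so a member has to be read against that shift. Of the 7 dendritic cell markers, Cd74 (265 to 1461 FPKM) and H2-Ab1 (209 to 661 FPKM) were abundant, and Itgax stood between 7.36 and 54.9 FPKM. Ciita (2.30 to 7.55 FPKM) and Zbtb46 (0.335 to 2.54 FPKM) were low, and Flt3 was under 1 FPKM in every library. Ccr7 was at 8.26 to 10.0 FPKM in immature and 32.2 to 45.3 FPKM in mature libraries (adjusted p = 0.151, limma). Markers of other cells were present too. Those of neutrophils, erythroid cells and platelets, and mast cells and basophils are given below beside members. The 5 macrophage markers summed to 85.1, 98.7 and 71.3 FPKM in immature libraries 1, 2 and 3. In mature libraries 1, 2 and 3 they summed to 73.9, 189 and 181 FPKM. Among them were Cd68 (12.9 to 103 FPKM) and Adgre1 (8.25 to 76.7 FPKM). Summed B cell markers were at 0.754 to 3.86 FPKM and T and natural killer cell markers at 1.43 to 11.99 FPKM. The part of such cells in the member values was not tested.

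RefSeq promoters, from 250 bases before to 50 bases after the start site on GRCm38.p6, were found for 56 of the 68 members, 72 promoters in all. The E-box CACGTG, a palindrome bound by several transcription factors, was in 7 of the 72 member promoters and in 7.15% of 32851 promoters in the whole set. The 7 belong to Rab20, Rab21, Rab24, Rab27a, Rab5a, Stx6 and Vamp4. The Rab20 promoter is shown whole, since Rab20 had the largest difference between the groups on the log2(FPKM + 1) scale. As a ratio of group means its 3.92-fold difference was below that of some low members, such as Rab37 at 4.18-fold. It lies at chr8:11478591-11478890 on the minus strand, and its E-box, in capitals, starts 46 bases before the start site.
Rab20: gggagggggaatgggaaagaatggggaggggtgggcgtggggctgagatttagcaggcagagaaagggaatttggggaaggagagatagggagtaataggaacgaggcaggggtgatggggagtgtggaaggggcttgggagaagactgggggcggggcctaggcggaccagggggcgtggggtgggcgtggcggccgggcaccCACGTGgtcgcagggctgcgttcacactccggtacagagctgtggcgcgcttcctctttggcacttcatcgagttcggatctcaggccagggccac

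For comparison, 1 E-box of each gene and the 15 bases on either side are shown for Rab20 at chr8:11478666-11478701, Rab21 at chr10:115315601-115315636 and Rab24 at chr13:55321958-55321993 on the minus strand, and for Rab5a at chr17:53479124-53479159 on the plus strand. Capitals mark the E-box. Rab5a holds a further E-box, at position -235 from its start site, with no GT before it, which is not shown. In the last 3 windows the E-box has GT directly before and AC directly after, a longer palindrome that contains the E-box, that the Rab20 promoter lacks and that 0.326% of all promoters held.
Rab20: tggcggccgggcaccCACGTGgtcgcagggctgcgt
Rab21: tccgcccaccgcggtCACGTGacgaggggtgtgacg
Rab24: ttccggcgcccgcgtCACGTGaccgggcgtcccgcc
Rab5a: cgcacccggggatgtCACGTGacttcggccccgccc
All motifs were searched on both strands, and apart from the longer palindrome no match in a member overlapped one of another motif. The core of the interferon-stimulated response element, 2 runs of GAAA with 2 bases between, was in 2 of the 72 member promoters, of Rab19 and Vamp1. It was in 3.44% of all promoters. A form of the kappaB site, GGGA and TTCC with 2 bases between, was in 1 of the 72, of Stx18, and in 1.47% of all promoters. TGAGTCA (AP-1) was in 2 of the 72, of Rab15 and Rab34, and in 5.20% of all promoters. TGACGTCA (the cyclic AMP response element) was in 1 of the 72, of Rab5a, and in 1.79% of all promoters. A match is a description of letters, and a missing match says only that these letters are not in this window.

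Most of these genes had values above 0 in every library. Every listed transcript reached 0.500024 FPKM or more in some library, so detection of a member in some library was fixed by the listing. Rab and SNARE genes that were not listed are not counted. FPKM is per length, so levels can be compared between genes. Of the 68 members, 56 were above 0 in all 6 libraries and 49 were at 0.5 FPKM or more in all 6. By mean FPKM over the 6 libraries, 2 members were at 50 or more, 21 between 10 and 50, 35 between 1 and 10 and 10 under 1. The 2 most abundant were Rab5c and Rab7, with means of 81.1 and 71.1 FPKM, and together they made up 21.6% of the summed member FPKM. Their ranges over the 6 libraries, 38.6 to 131 and 34.9 to 139 FPKM, lay on top of each other. Vamp8, Rab14, Rab15 and Rab1b followed with means of 36.6, 29.8, 24.6 and 23.9 FPKM.

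**Figure D1:**
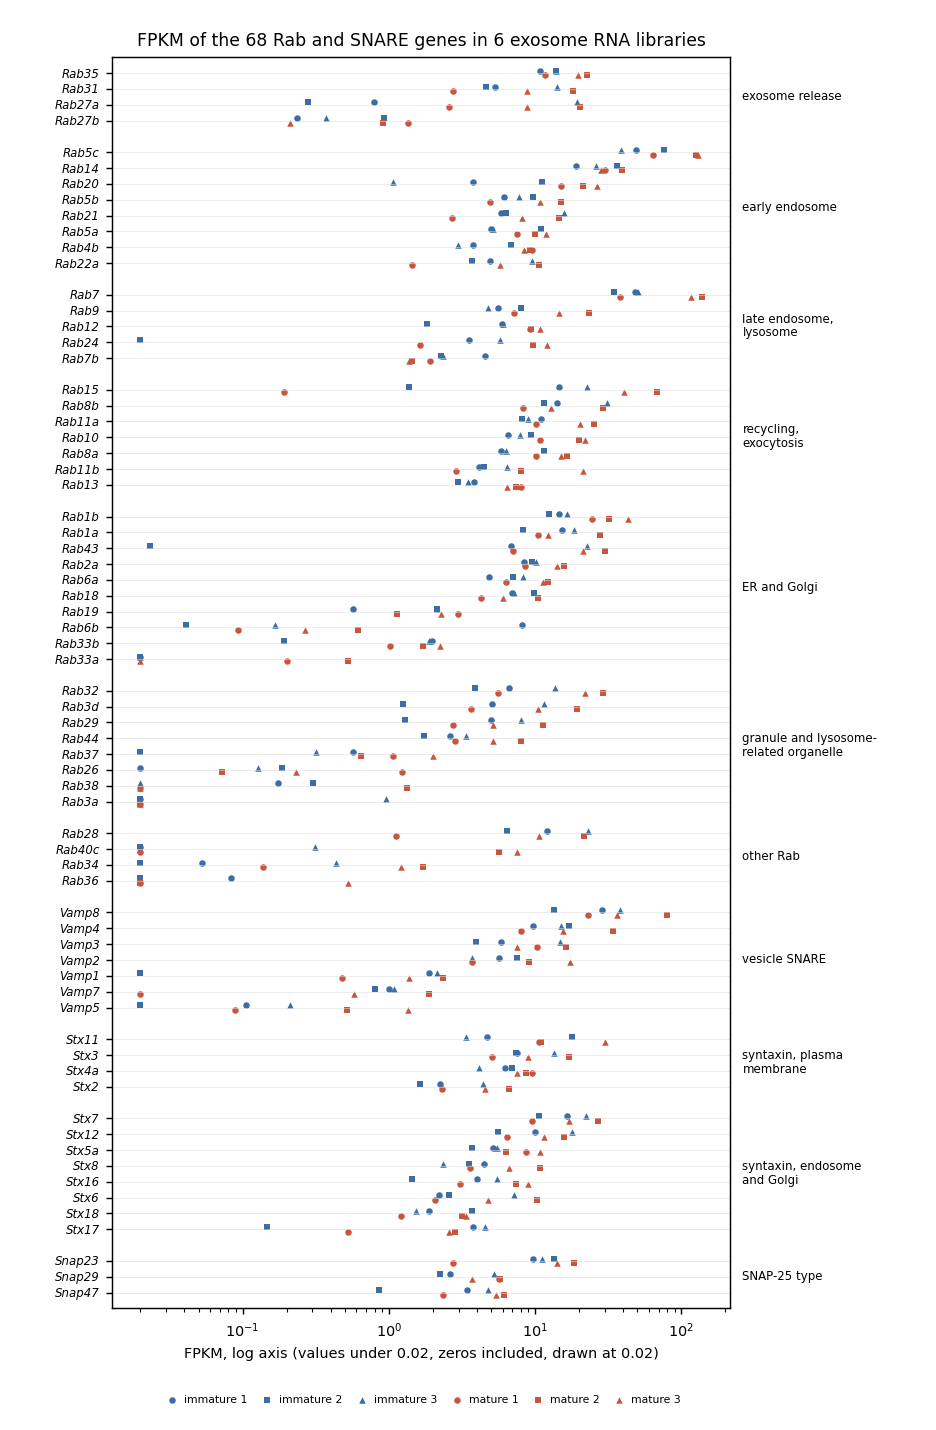
FPKM on a log axis of the 68 Rab and SNARE genes, grouped by where their proteins act. Each symbol is 1 library, blue for immature and red for mature. Rab5c and Rab7 have the highest means, 81.1 and 71.1 FPKM, and 10 members have means under 1 FPKM.

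The members summed to 480, 467 and 649 FPKM in immature libraries 1, 2 and 3 and to 465, 1199 and 959 FPKM in mature libraries 1, 2 and 3. Mature libraries 2 and 3 were above all the immature libraries, and mature library 1 was below them. As a share of each library's summed FPKM the members made up 0.330%, 0.344% and 0.304% in the immature libraries and 0.357%, 0.426% and 0.391% in the mature ones. On that scale the groups did not overlap. Ribosomal protein genes, which enter the same total, took 23.7%, 12.6% and 33.8% of it in the immature libraries. In the mature ones they took 11.9%, 19.6% and 13.2%, and their part in the member shares was not tested. Among the 59 members with an FPKM of at least 0.5 in 3 or more libraries, immature 3 was the highest immature library for 35 (59.3%). Mature 2 was the highest mature library for 38 (64.4%). Over all genes tested these shares were 56.2% and 56.9%. The lowest of the 6 values fell in immature 2 or mature 1 for 71.2% of these members, against 68.2% of all genes tested.

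No member passed the test between the groups. With limma on log2(FPKM + 1) over all 10277 genes, 0 of the 59 tested members were higher and 0 lower in the mature group at a Benjamini-Hochberg adjusted p under 0.05, where 0.185% and 0% of all genes were called. At an unadjusted p under 0.05, 2 members were higher, Rab20 and Rab1b, or 3.39% of the members against 9.52% of all genes, and 0 were lower, against 0.224%. The median log2 fold change was 0.52 over the tested members and 0.38 over all genes tested, with 50 of 59 members above 0 (84.7%) against 76.4% of all genes. All 3 mature values exceeded all 3 immature values for 9 members (15.3%), Rab20, Rab1b, Rab12, Rab10, Rab4b, Rab13, Rab37, Stx5a and Stx4a, where the share over all genes was 16.7%. Rab7b was the 1 member with all mature values below (1.69%, against 0.642%). These shares are near the background, apart from the higher share of unadjusted calls over all genes than over members.

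Scaling bore on all of this. With median-of-ratios, upper-quartile and quantile scaling, the median over the members was 0.09, 0.09 and 0.06, and the median over all genes was 0.02, 0.00 and -0.04. Members with all mature values above, 9 in unscaled FPKM, then numbered 3, 2 and 2, against 7.58%, 7.48% and 6.84% of all genes. After median-of-ratios scaling Rab1b was the only one of the 9 still without overlap. The groups then overlapped for Rab20, Rab12, Rab10, Rab4b, Rab13, Rab37, Stx5a and Stx4a. Statements on overlap of single members below are for unscaled FPKM. Without both immature 2 and mature 1, 0 members passed, 16 of 59 were higher at an unadjusted p under 0.05, against 19.3% of all genes, and the groups did not overlap for 34 of 59, against 48.3%. Leaving out mature 1 alone gave 13 and 29 of 59, against 16.9% and 40.8% of all genes. Leaving out immature 3 alone gave 5 and 15, against 10.2% and 26.8%, and leaving out immature 2 alone gave 3 and 15, against 8.28% and 23.4%. Leaving out immature 1, mature 2 or mature 3 left 1 member at an unadjusted p under 0.05, against 5.84%, 6.4% and 3.77% of all genes. The shares over all genes moved with the counts of members.

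**Figure D2:**
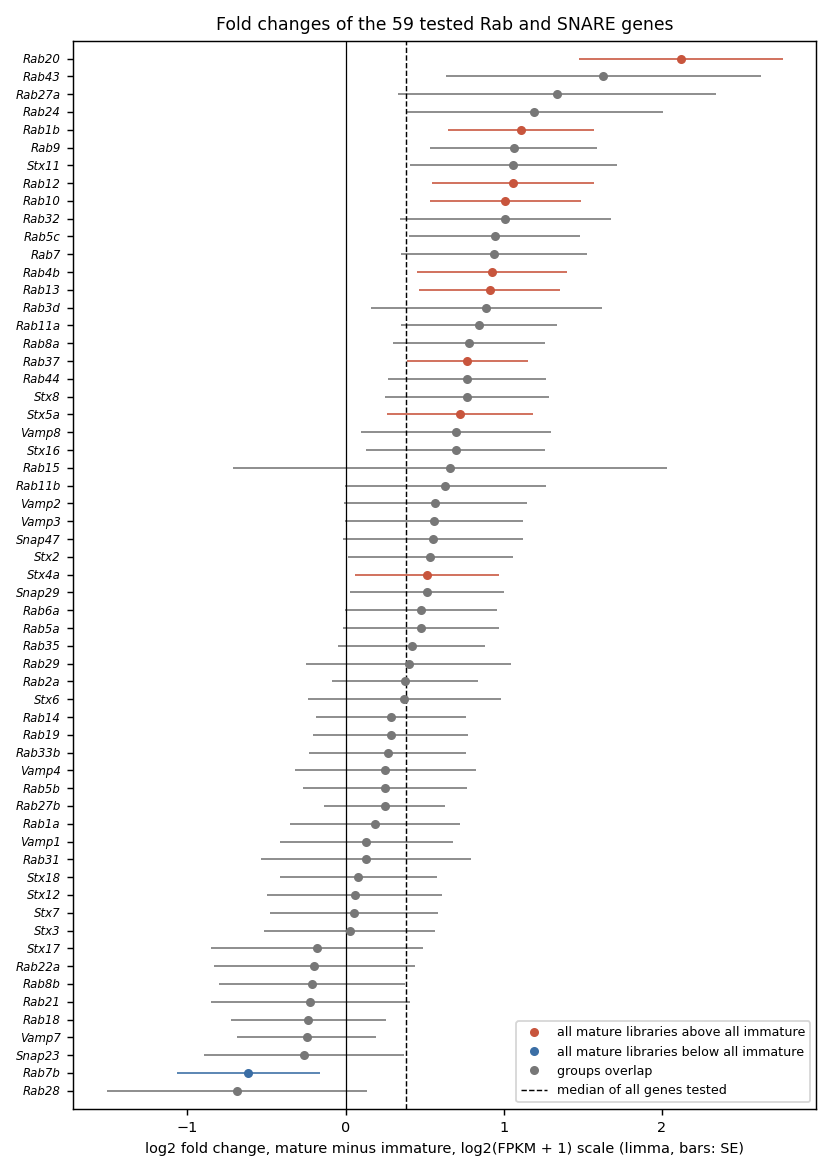
Log2 fold change of each of the 59 tested Rab and SNARE genes, mature minus immature on the log2(FPKM + 1) scale, with its limma standard error. Rab20 has the highest value at 2.12, red points are the 9 members whose mature libraries all exceeded the immature ones, the blue point is Rab7b, and the dashed line at 0.38 is the median of all genes.

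Early endosome Rab genes included the member with the largest difference on the log2(FPKM + 1) scale. Rab20 (chr8:11453518-11478710, minus strand, GRCm38) encodes a Rab of endosomes and phagosomes that takes part in phagosome maturation in macrophages. Library values are given in the order 1, 2 and 3 throughout. Rab20 stood at 3.75, 11.2 and 1.061 FPKM in immature and 15.03, 21.1 and 26.4 FPKM in mature libraries. In unscaled FPKM all mature values lay above the immature ones, with immature 2 the closest. After median-of-ratios scaling immature 2 lay above mature 2, so the groups overlapped. The means were 5.32 ± 5.23 and 20.9 ± 5.69 FPKM (SD, n = 3), with a log2 fold change of 2.12 ± 0.64 (SE; adjusted p = 0.318, limma). After median-of-ratios scaling the log2 fold change was 1.63 (adjusted p = 0.706 by limma), and without both immature 2 and mature 1 it was 2.98 (adjusted p = 0.0504 by limma). Gm20100, a gene listed within its span on the same strand, was at most 1.30 FPKM.

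The other early endosome genes differed less between the groups. Rab5c, one of 3 Rab5 genes whose proteins govern fusion of early endosomes, was at 49.4, 76.7 and 38.6 FPKM in immature and 64.1, 127 and 131 FPKM in mature libraries, a log2 fold change of 0.94 ± 0.54 (SE; adjusted p = 0.597, limma). Only immature 2 lay above mature 1. Rab5a was at 5.01, 11.1 and 5.16 against 7.48, 9.93 and 11.9 FPKM, with overlapping groups. Rab5b, at a mean of 9.09 FPKM, was like Rab5a in level, so Rab5c carried most of the Rab5 messenger RNA in every library.

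Rab4b, whose protein acts in fast recycling from early endosomes, was at 3.74, 6.88 and 2.96 FPKM in immature and 9.55, 9.22 and 8.36 FPKM in mature libraries. The mature libraries lay above all immature ones and within a narrow range, and the log2 fold change was 0.92 (SE 0.48, limma adjusted p = 0.555). Rab14, which works between endosomes and the Golgi, was at 19.0, 36.3 and 26.0 against 30.0, 39.3 and 28.4 FPKM, with overlapping groups and a log2 fold change of 0.29 that was -0.21 after median-of-ratios scaling. Rab21, which is linked to integrin traffic, and Rab22a had log2 fold changes of -0.22 and -0.20. In the early endosome group, 0 of 8 tested genes passed the test and 6 had fold changes above 0.

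Genes whose proteins are tied to exosome release did not pass either (0 of 4). Rab27a, which docks multivesicular endosomes at the plasma membrane in human cell lines, was at 0.787, 0.281 and 19.2 FPKM in immature and 2.57, 20.3 and 8.80 FPKM in mature libraries. Immature 3 and mature 2 were high and the rest lower, so the spread within a group was as wide as the spread between groups (log2 fold change 1.34 ± 1.00 SE, adjusted p = 0.696 by limma). With 1 library left out the Rab27a log2 fold change ranged from 0.59, without immature 2, to 2.58, without immature 3. The 8 neutrophil and granule markers, all listed, summed to 183, 224 and 1216 FPKM in the immature libraries and to 247, 1114 and 419 FPKM in the mature ones, highest in the same 2 libraries. Within that list Ly6g was at 0 in immature 1 and 2, and Elane at 0 in immature 2 and mature 1. Most genes of the table peaked there as well, 56.2% in immature 3 among the immature libraries and 56.9% in mature 2 among the mature ones. Rab31, Rab8b and Rab3d, described below, were also highest in those 2 libraries of their groups. The part of such cells in the values of these 4 genes was not tested.

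Its paralog Rab27b was low, at 0.235, 0.923 and 0.369 FPKM in immature and 1.34, 0.915 and 0.210 FPKM in mature libraries. Rab35, which acts in endosomal recycling and has been tied to exosome release in mouse oligodendroglial cells, was even across libraries, at 10.8, 13.99 and 13.9 against 11.6, 22.8 and 19.8 FPKM. Its log2 fold change of 0.42 ± 0.47 (SE; adjusted p = 0.813, limma) lay near the median gene. Rab31, an endosomal Rab of the Rab5 subfamily, was at 5.33, 4.64 and 14.1 against 2.76, 18.1 and 8.83 FPKM, again highest in immature 3 and mature 2. The 4 erythroid and platelet markers, all listed, summed to 30.5, 31.1 and 305 FPKM in immature and 37.4, 197 and 61.2 FPKM in mature libraries. Hba-a1 and Hbb-bs, both hemoglobin genes, were highest in immature 3 and mature 2, whereas the platelet gene Pf4 was highest in immature 1 and mature 3 and Itga2b in immature 2 and mature 3. The part of such cells in these values was not tested.

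The late endosome and lysosome genes had the highest median log2 fold change among the role groups, 1.057 over 5 tested genes, and 0 of 5 passed. Rab7, the Rab of late endosomes and of their fusion with lysosomes, was at 48.1, 34.9 and 50.9 FPKM in immature and 38.4, 139 and 116 FPKM in mature libraries. Mature 2 and 3 were far above the immature libraries while mature 1 lay among them (log2 fold change 0.94 ± 0.59 SE, adjusted p = 0.639 by limma). Rab12, whose protein steers cargo from recycling endosomes to lysosomes, was at 5.97, 1.83 and 6.02 against 9.21, 9.32 and 10.8 FPKM, with no overlap (log2 fold change 1.057 ± 0.51 SE, adjusted p = 0.534 by limma). Rab9, of transport from late endosomes to the Golgi, had a log2 fold change of 1.062, with mature 1 at 7.21 FPKM below immature 2 at 8.05 FPKM.

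Rab7b, as the sum over its transcripts, ran the other way. Its protein acts between endosomes, lysosomes and the Golgi and has been described as lowering Toll-like receptor 4 signalling in macrophages. Its levels were 4.55, 2.27 and 2.33 FPKM in the immature libraries and 1.92, 1.44 and 1.38 FPKM in the mature ones, so every mature value was below every immature one (log2 fold change -0.61 ± 0.45 SE, adjusted p = 0.692 by limma). This rested on isoforms seen in 1 library each, Rab7b-201 at 3.91 FPKM in immature 1 and Rab7b-203 at 1.26 FPKM in immature 3. Rab7b-202, present in all libraries, was at 0.637, 2.27 and 1.08 against 1.92, 1.44 and 1.38 FPKM. Its groups overlapped, with a log2 fold change of 0.20. Rab24, linked to autophagy, was at 3.54, 0 and 5.80 against 1.64, 9.67 and 12.1 FPKM. It overlaps Prelid1 on the opposite strand over 1446 bases, and Prelid1 was at 40.9 to 107 FPKM. The counting is not stated to use strand, so reads of such a pair cannot be told apart.

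**Figure D3:**
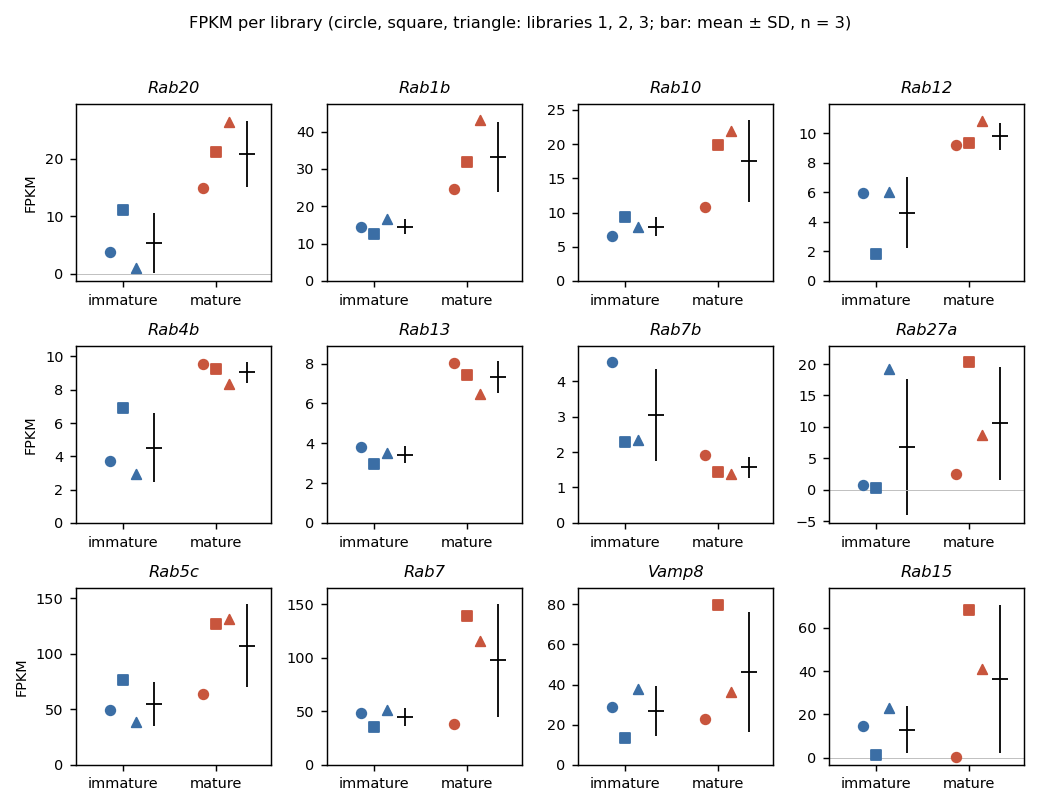
FPKM of 12 members in each library, with group means and SD (n = 3). In unscaled FPKM the mature libraries stand above the immature ones for Rab20, Rab1b, Rab10, Rab12, Rab4b and Rab13. They stand below them for Rab7b, while Rab27a, Rab5c, Rab7, Vamp8 and Rab15 overlap.

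Recycling and exocytic Rab genes held several members with log2 fold changes near 1, and 0 of 7 passed the test. Rab10, whose protein carries vesicles to the plasma membrane and delivers Toll-like receptor 4 to the surface of mouse macrophages, was at 6.56, 9.37 and 7.85 FPKM in immature and 10.8, 19.9 and 22.0 FPKM in mature libraries. The groups did not overlap (log2 fold change 1.01 ± 0.48 SE, adjusted p = 0.524 by limma). Rab13, of traffic to cell junctions and the leading edge, was at 3.81, 2.96 and 3.49 against 8.05, 7.44 and 6.46 FPKM. In unscaled FPKM both of its groups were tight and apart, but after median-of-ratios scaling they overlapped. Its log2 fold change of 0.91 (SE 0.44) gave a limma adjusted p of 0.537.

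Rab11a, the main Rab of recycling endosomes, was at 10.997, 8.11 and 8.91 FPKM in immature and 10.1, 25.4 and 20.2 FPKM in mature libraries (log2 fold change 0.84 ± 0.49 SE, adjusted p = 0.605 by limma). Rab8b, a Rab of polarized exocytosis, was at 14.1, 11.4 and 31.2 against 8.29, 29.2 and 12.9 FPKM, with a log2 fold change of -0.21. Rab15, which acts on early and recycling endosomes, varied widely, at 14.6, 1.36 and 22.8 against 0.192, 68.05 and 40.8 FPKM. Its 2 lowest values were in immature 2 and mature 1, and without both the log2 fold change of 0.66 (adjusted p = 0.918 by limma) was 1.48 (adjusted p = 0.177 by limma). Rab15 lies inside Fntb, on the opposite strand, which was at 0.590 to 4.95 FPKM.

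Among the Rab genes of the endoplasmic reticulum and Golgi, 0 of 8 passed. Rab1b (chr19:5099207-5106996, minus strand, GRCm38), which with Rab1a governs transport from the endoplasmic reticulum to the Golgi, was at 14.6, 12.5 and 16.6 FPKM in immature and 24.7, 32.0 and 43.1 FPKM in mature libraries. The groups did not overlap, and the means were 14.6 ± 2.06 and 33.2 ± 9.31 FPKM (log2 fold change 1.11 ± 0.46 SE, adjusted p = 0.465 by limma). Rab43, a Golgi Rab that aids cross-presentation in mouse dendritic cells, was at 6.81, 0.0232 and 22.7 against 7.10, 30.2 and 21.2 FPKM, lowest in immature 2. Its log2 fold change of 1.63 (SE 0.99) had a limma adjusted p of 0.625. Rab6b had 1 high value, 8.14 FPKM in immature 1, with 0.0411 to 0.620 FPKM in the other 5 libraries, and did not pass the filter.

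Granule and lysosome-related organelle Rab genes had 0 of 5 past the test, with a median log2 fold change of 0.77. Rab32, which builds lysosome-related organelles and acts in host defence in macrophages, was at 6.67, 3.91 and 13.7 FPKM in immature and 5.55, 29.2 and 22.0 FPKM in mature libraries. Mature 2 and 3 were above all immature values and mature 1 was not (log2 fold change 1.01 ± 0.67 SE, adjusted p = 0.659 by limma). Rab3d, of secretory granules, was at 5.09, 1.26 and 11.6 against 3.68, 19.5 and 10.5 FPKM.

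Rab37 and Rab44, both described in mast cell granules, were low, with means of 0.771 and 3.95 FPKM. Rab37 was at 0.573, 0 and 0.320 FPKM in immature and 1.07, 0.645 and 2.02 FPKM in mature libraries, with no overlap (log2 fold change 0.77 ± 0.38 SE, adjusted p = 0.545 by limma). It shares 17779 bases of opposite strand with Cd300lf, which was at 18.0 to 49.2 FPKM. The 6 mast cell and basophil markers, all listed, summed to 4.24, 2.24 and 7.76 FPKM in the immature libraries and to 19.9, 47.9 and 53.1 FPKM in the mature ones. Fcer1a was at 0 in the 3 immature libraries and in mature 1, and the part of such cells in the Rab37 and Rab44 values was not tested.

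Of the vesicle SNARE genes 0 of 6 passed the test, and their median log2 fold change was 0.40. Vamp8, the endolysosomal vesicle SNARE that also serves regulated secretion, was at 28.8, 13.5 and 38.0 FPKM in immature and 22.9, 79.9 and 36.3 FPKM in mature libraries. Mature 2 stood alone at the top and the groups overlapped (log2 fold change 0.70 ± 0.60 SE, adjusted p = 0.737 by limma). Vamp3, of recycling endosomes and of cytokine release in macrophages, was at 5.82, 3.94 and 14.7 against 10.3, 16.4 and 7.53 FPKM.

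Vamp7, which serves fusion of lysosomes and late endosomes with the plasma membrane, was low, at 1.01, 0.800 and 1.09 FPKM in immature and 0, 1.87 and 0.577 FPKM in mature libraries. The table places it on an unplaced scaffold, the 1 member of 68 whose listed position did not overlap RefSeq's. Vamp5 and Vamp8 lie 4801 bases apart on chromosome 6, yet Vamp5 had a mean of 0.378 FPKM and Vamp8 one of 36.6 FPKM.

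Syntaxins of the plasma membrane had 0 of 4 past the test. Stx11, a syntaxin that human lymphocytes need to release cytotoxic granules, was at 4.69, 18.0 and 3.38 FPKM in immature and 10.6, 10.9 and 30.0 FPKM in mature libraries. Immature 2 exceeded mature 1 and 2, and the log2 fold change was 1.061 (SE 0.66, limma adjusted p = 0.631), or 1.95 without both immature 2 and mature 1 (adjusted p = 0.14 by limma). The overlap of the Stx11 sum rested on the isoform Stx11-203, at 14.2 FPKM in immature 2, 78.6% of the gene there. For Stx11-201, Stx11-202 and Stx11-204 all mature values lay above the immature ones. Stx4a, the syntaxin of constitutive fusion at the plasma membrane, was at 6.23, 6.98 and 4.12 against 9.52, 8.68 and 7.49 FPKM as a sum, a small shift without overlap (log2 fold change 0.52 ± 0.46 SE, adjusted p = 0.744 by limma). Its isoform Stx4a-201 was at 3.79, 3.76 and 4.12 against 9.52, 8.68 and 7.49 FPKM (log2 fold change 0.96 ± 0.47 SE, adjusted p = 0.692 by limma). Stx4a-202, at 2.44 FPKM in immature 1, and the processed transcript Stx4a-208, at 2.51 FPKM in immature 2, raised the immature sums. Stx3 was at 7.57, 7.36 and 13.4 against 5.10, 17.0 and 8.90 FPKM, with a log2 fold change of 0.03.

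Syntaxins of endosomes and the Golgi had a low median log2 fold change, 0.23 over 8 tested genes, with 0 past the test. Stx7, the late endosomal syntaxin, and Stx12, the early endosomal one, had means of 17.2 and 11.2 FPKM and log2 fold changes of 0.05 and 0.06. Stx5a, of the early Golgi, was at 5.14, 3.69 and 5.48 FPKM in immature and 8.66, 6.35 and 10.8 FPKM in mature libraries, without overlap (log2 fold change 0.72 ± 0.46 SE, adjusted p = 0.646 by limma). Of the SNAP-25 type genes (0 of 3 past the test), Snap23, the partner of surface syntaxins in most cells outside the brain, was at 9.73, 13.4 and 11.2 against 2.73, 18.5 and 14.1 FPKM. Mature 1 alone was low, and the log2 fold change of -0.26 was 0.47 without it.

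Rab28 and the other Rab genes of less settled place included members with wide swings. Rab28, a Rab linked to cilia, was at 12.04, 6.46 and 23.0 FPKM in immature and 1.11, 21.7 and 10.7 FPKM in mature libraries, the lowest log2 fold change of the tested members at -0.69 (SE 0.82, limma adjusted p = 0.831). Rab40c was at 0, 0 and 0.311 against 0, 5.67 and 7.58 FPKM, and it did not pass the filter. The 9 members that did not pass it were Rab6b, Rab40c, Rab3a, Rab26, Rab33a, Rab34, Rab36, Rab38 and Vamp5.

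Ratios between related members within a library depend little on how that library is scaled where both are well above 1 FPKM. For the 8 pairs of tested members that share a number, the log2 ratio of (FPKM + 1) was compared between the groups, a choice made after the values were seen. Where a member is low the added 1 weighs on the ratio. The group difference for Rab27a to Rab27b was 1.09, and 1.57 with 0.1 added instead. The ratio of Rab5b to Rab5c was -2.81, -2.87 and -2.17 in the immature libraries and -3.45, -2.98 and -3.49 in the mature ones. Every mature value was lower, and the difference was -0.69 (2-sided exact permutation p = 0.1, adjusted p = 0.32). With 3 libraries against 3, 0.1 is the smallest p the test allows.

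Rab1a to Rab1b stood at 0.06, -0.55 and 0.15 in the immature libraries and at -1.16, -0.20 and -1.74 in the mature ones, a difference of -0.92 (exact permutation p = 0.2, adjusted p = 0.32). Rab7 to Rab7b had means of 3.52 ± 0.41 and 5.07 ± 1.15 (SD, n = 3), and Rab8a to Rab8b means of -1.09 ± 1.07 and -0.10 ± 0.59, both with an exact permutation p of 0.2 and an adjusted p of 0.32. The Rab7b sum rests in part on Rab7b-201 and Rab7b-203, each above 0 in a single immature library. The other 4 pairs had exact permutation p-values from 0.2 to 0.8. Rab1a with Rab1b and the 3 Rab5 genes are close in sequence, and how the authors assigned reads shared between paralogs is not given in the sources used here.

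Single transcripts repeated this picture, and here too 0 of 97 tested member transcripts were higher and 0 lower at an adjusted p under 0.05 (limma over 15972 transcripts, of which 0.0626% and 0.0125% were called). At an unadjusted p under 0.05, 7 were higher (7.22%, against 7.39% of all transcripts) and 1 was lower (against 0.682%). Groups did not overlap for 13 with mature above (13.4%, against 13.1%) and 2 with mature below (2.06%, against 1.39%). Of the 153 listed, 133 are protein coding and 20 are processed transcripts, and 42 of the 68 genes have more than 1. Processed transcripts made up 2.99%, 6.26% and 1.80% of member FPKM in the immature libraries and 4.89%, 2.32% and 2.89% in the mature ones, highest in immature 2 and mature 1.

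Within some genes the listed isoforms divided differently. Rab1a-201 was at 7.91, 2.92 and 2.48 FPKM in immature and 0.491, 1.54 and 0.550 FPKM in mature libraries (log2 fold change -1.46 ± 0.58 SE, adjusted p = 0.552 by limma), below in all 3. It made up 51.8%, 35.5% and 13.4% of Rab1a in the immature libraries and 4.70%, 5.56% and 4.51% in the mature ones, while Rab1a-206 made up 19.2%, 1.47% and 85.9% and then 86.3%, 74.2% and 71.6%. The Rab1a sum itself had a log2 fold change of 0.19.

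Stx5a-213 was listed at 0 in all 3 immature samples, against 4.03, 0.722 and 7.07 FPKM in mature libraries (adjusted p = 0.413 by limma). Stx5a-213 passed the filter through the mature libraries alone, so its lack of overlap is not separate support for a difference. Stx5a-202 made up 27.2%, 100% and 69.1% of Stx5a in the immature libraries and 0.197%, 29.0% and 1.35% in the mature ones. Stx18-203, the 2nd transcript with all mature values below, was at 1.88, 3.70 and 1.54 against 1.21, 1.14 and 1.28 FPKM (adjusted p = 0.853 by limma). Stx11-204 was at 0.682, 0 and 0 against 1.84, 2.27 and 6.46 FPKM (adjusted p = 0.431 by limma). Rab12-201 was at 0.858, 1.38 and 3.87 against 6.14, 8.08 and 6.90 FPKM (log2 fold change 1.52 ± 0.56 SE, adjusted p = 0.519 by limma). How a gene's reads are divided among isoforms is an estimate, with an error that the files do not give.

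**Figure D4:**
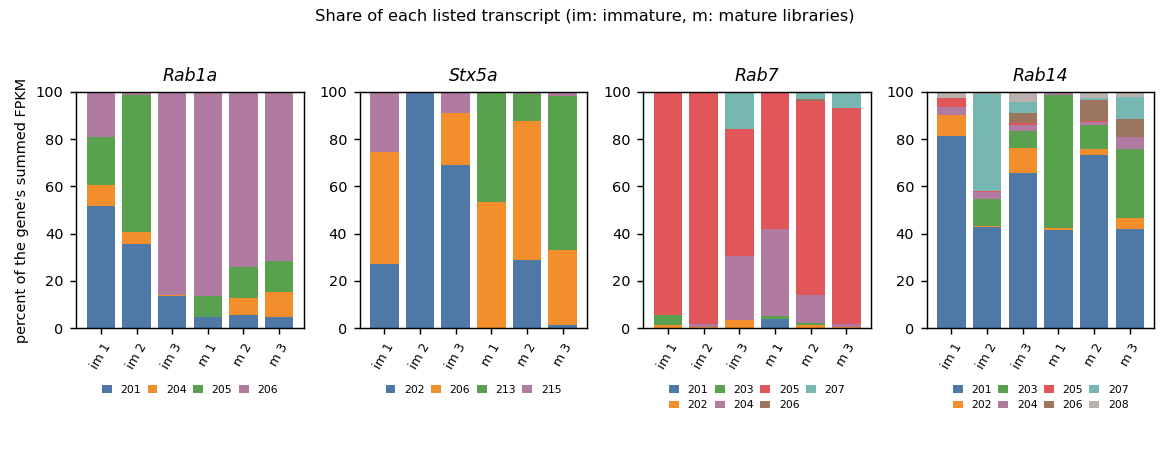
Share of each listed transcript in the summed FPKM of Rab1a, Stx5a, Rab7 and Rab14 in each library, as stacked bars to 100%. Rab1a-206 makes up 71.6% to 86.3% in the mature libraries, while Stx5a-213 appears there and is at 0 in the immature libraries.

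Rab7 and Rab14, with 7 and 8 listed transcripts, also varied from library to library. Rab7-205 made up 94.4%, 98.2% and 53.4% of Rab7 in the immature libraries and 58.0%, 82.0% and 91.1% in the mature ones, with no split between the groups. Rab14-203, a processed transcript, made up 0%, 11.6% and 7.36% of Rab14 in the immature libraries and 56.5%, 10.2% and 28.9% in the mature ones. With protein-coding transcripts alone the Rab14 log2 fold change was -0.024. These 2 genes were chosen for the transcript shares after their values were seen.

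The genes that act with Rab and SNARE proteins gave 0 of 91 tested higher and 0 lower at an adjusted p under 0.05, while an unadjusted p under 0.05 was reached by 5 with mature higher (5.49%, against 9.52% of all genes) and 1 with mature lower (1.10%, against 0.224%). Their groups did not overlap for 17 with mature above (18.7%, against 16.7%) and 1 below (1.10%, against 0.642%), which is near the background. Median log2 fold changes were 0.32 for 8 genes of the Rab membrane cycle, 0.42 for 21 exchange factors, 0.61 for 21 GTPase-activating proteins, 0.59 for 16 effectors, 0.24 for 12 other SNAREs and 0.41 for 13 genes of SNARE disassembly and Sec1/Munc18 proteins. Each of these lists had 0 genes past the test in either direction.

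Mlph, which encodes melanophilin, a Rab27a effector that links organelles to myosin, was at 0.726, 2.35 and 0.166 FPKM in immature and 6.56, 5.58 and 26.7 FPKM in mature libraries (log2 fold change 2.56 ± 0.66 SE, adjusted p = 0.224 by limma). Ehd1, whose protein acts on recycling endosomes, was at 14.4, 17.1 and 11.6 against 35.2, 56.9 and 88.9 FPKM (log2 fold change 1.91 ± 0.50 SE, adjusted p = 0.239 by limma). Both had groups well apart. Sytl3, a synaptotagmin-like gene whose protein binds Rab27, lies outside the naming rule and was chosen after its values were seen, at 0.00283, 0 and 0 against 1.93, 1.59 and 1.61 FPKM (adjusted p = 0.157 by limma). Sytl3 passed the filter through the mature libraries alone, so its lack of overlap is not separate support for a difference.

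At the other end, Dennd4c, an exchange factor gene for Rab10, was at 21.4, 9.90 and 14.9 FPKM in immature and 1.86, 7.47 and 7.19 FPKM in mature libraries, below in every one (log2 fold change -1.43 ± 0.57 SE, adjusted p = 0.447 by limma). Dennd1b, an exchange factor gene for Rab35, was at 27.6, 16.7 and 36.1 against 6.72, 19.8 and 15.2 FPKM (log2 fold change -0.95 ± 0.54 SE, adjusted p = 0.593 by limma). The most abundant partners were Gdi2, whose protein draws Rab proteins off membranes, with a mean of 124 FPKM, then Rabac1, the prenylated Rab acceptor gene, at 63.0 and Ehd1 at 37.4 FPKM. Gdi2 was at 136, 54.3 and 155 against 77.6, 196 and 123 FPKM, lowest in immature 2 and mature 1.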

How the data were processed

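The deposited values are FPKM of single transcripts, per the file headers, and no read counts were used. StringTie, STAR 2.5.2b, HISAT2 2.0.5 and cutadapt appear in the submitters' processing notes without their roles, beside hg19, a human build. The identifiers are mouse Ensembl ones, and 67 of 68 member positions overlapped RefSeq's on GRCm38, so positions are read on that build. Every listed transcript reached 0.500024 FPKM or more in some library.

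FPKM was summed over the transcripts of a gene. A gene entered the test if 3 or more of the 6 libraries reached 0.5 FPKM. The model was limma 3.58.1 in R 4.3.3 (trend and robust options) on log2(FPKM + 1), unscaled and without a replicate block, with p adjusted over the whole table. Exact permutation tests used scipy 1.17.1 in Python 3.11.15. The procedure was tested on simulated data. Fold changes on this scale understate those of low genes.

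Read totals are unknown. Of 5787 genes with 1 transcript, 459 to 637 had values above 0 and below 0.6 FPKM in both the library and immature 1. Their most frequent ratio put depth relative to immature 1 at 1.15 and 0.990 for immature 2 and 3. For mature 1, 2 and 3 it gave 1.19, 0.905 and 0.756. Each estimate came from 9 to 17 genes.

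Members and lists were chosen with earlier results of these data known. Named in full were 27 members: those past the test, the 6 highest and 4 lowest without overlap, the 6 most abundant and 20 check genes. Other members named in passing were chosen after their values were seen. Partner genes were named if past the test, among the 2 highest or lowest by fold change or the 3 most abundant, and transcripts by the 4 smallest p per direction without overlap. Alternatives covered pseudocount, filter, scaling, replicate block, coding transcripts and libraries left out.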

Additional observations from a re-analysis of the deposited data

How the results depend on the processing

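The count of members past the test was 0 in both directions under all 15 alternatives, as it was for member transcripts and partner genes under the 14 run for them, so stability there says little. Members at an unadjusted p under 0.05 numbered 2 at first, 1 with each of the 3 scalings, 1 to 13 with any 1 library left out and 16 without both immature 2 and mature 1. Members whose mature values all lay above the immature ones numbered 9, then 3, 2 and 2 with median-of-ratios, upper-quartile and quantile scaling, 10 to 29 with any 1 library left out (18.4% to 40.8% of all genes), and 34 without both immature 2 and mature 1 (48.3% of all genes). The median log2 fold change over members, 0.52, ranged from 0.32 to 0.75 with 1 library left out.

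Libraries of the same number did not deviate together: deviations from the group means correlated at -0.03, -0.45 and -0.13 for numbers 1, 2 and 3. Among unlike numbers the highest correlations were 0.53 for immature 3 with mature 2 and 0.38 for immature 2 with mature 1. Such values cannot show whether libraries were paired when they were made. With the replicate block, 0 members passed and 1 had an unadjusted p under 0.05. The count over all genes was 5 in place of 19.

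Of 27 named members, 17 kept their direction under every alternative and 10 did not. With median-of-ratios, upper-quartile and quantile scaling in that order, the log2 fold change was -0.21, -0.23 and -0.22 for Rab14, -0.34, -0.36 and -0.37 for Rab31, -0.067, -0.091 and -0.068 for Rab35, and -0.44, -0.47 and -0.46 for Stx3. It was -0.0087 for Rab5a with upper-quartile scaling, -0.026 for Rab27b with quantile normalization and -0.024 for Rab14 with coding transcripts alone. Leaving out 1 library gave -0.44 to 2.49 for Rab15, -0.42 to 0.75 for Rab31, -0.38 to 0.40 for Stx3, -0.68 to 0.20 for Rab8b, -0.72 to 0.47 for Snap23 and -0.64 to 0.12 for Vamp7. Among members that kept their direction, it gave 0.59 to 2.58 for Rab27a, 0.59 to 1.504 for Rab7, 0.58 to 1.68 for Rab32, 0.24 to 1.48 for Rab3d and 0.22 to 1.10 for Vamp8, and the value without immature 2 was 0.62 for Rab12. Without both immature 2 and mature 1 it was 0.58 for Snap23 and 0.06 for Vamp7, and the ratio of Rab11a to Rab11b differed by -0.080 in place of 0.21. The cause was not tested. Read totals are unknown, so the counting error behind low values is unknown too.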
